A study of Mus musculus with 3 samples.

Results

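Interstitial cells of Cajal are the pacemaker cells of the gut muscle: they generate electrical slow waves, pass them to smooth muscle and relay signals from enteric nerves. They depend on the receptor tyrosine kinase KIT, whose signalling stabilises the ETS transcription factor ETV1, and their pacemaker current runs through the calcium-activated chloride channel ANO1. In 3 single-cell libraries from inflamed mouse colon, 736 of 19109 kept barcodes met a rule for cells of this kind. The rule asked for at least 2 unique molecular identifiers (UMIs, each counted once per RNA molecule captured) summed over 6 genes, Ano1, Etv1, Kit, Gpc3, Rprm and Chodl, with at least 1 of them from Ano1 or Etv1. It also asked for no UMI of Ptprc (which encodes CD45) or of the mast cell gene Cpa3, none of the endothelial genes Cdh5 and Flt1, and at most 1 UMI over the epithelial genes Epcam, Krt8 and Krt19. Barcodes had been kept with at least 500 UMIs, at least 200 genes and at most 10% mitochondrial UMIs. Because measured values chose the cells, their levels of the 6 genes and their differences from other cells are descriptions, and no test was made of them.

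The study compared antibodies that interfere with the homing of immune cells to the gut, in C57/BL6J mice with acute colitis from 1.5% dextran sulfate sodium (DSS) given for 7 days, with plain water for the last 3 days before collection. The antibody DATK32, the antibody MECA367 or rat IgG was injected into the peritoneum at 250 µg per dose, 3 times a week, and each of the 3 arms is 1 library. From the large intestine, lamina propria mononuclear cells that were viable and stained for CD45 were sorted, put through a 10x 3' v3.1 protocol and sequenced on a shared NovaSeq lane; how many mice each library holds is not given in the sources used here. With 1 library per arm no difference between arms has a replicate check, no p-value was computed, and every interval below is an exact 95% interval for counting error alone. The DATK32 library held 8445 barcodes with 28030376 UMIs, MECA367 8387 barcodes with 27846540 UMIs and RatIgG 10826 barcodes with 30359331 UMIs.

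The pacemaker-like cells numbered 310 in DATK32, 166 in MECA367 and 260 in RatIgG. They carry no Ptprc UMI by the rule, although the sort was for CD45, so the RNA of the sorted marker was not seen in them. Their median depth was 1139.5 UMIs in DATK32, 1660.5 in MECA367 and 913.5 in RatIgG, so the RatIgG members were the shallowest. Mitochondrial RNA made up a median of 6.05% of their UMIs in DATK32, 5.65% in MECA367 and 5.79% in RatIgG. In the other cells that passed the exclusions of the rule (gated cells, 6268 in all), the medians were 3.73% in DATK32, 3.79% in MECA367 and 3.95% in RatIgG. Pairs of libraries shared 7, 11 or 9 kept barcodes and no member.

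At least 3 of the 6 rule genes were found in 498 members (67.7%). A UMI of Ano1 was present in 526 members (71.5%), of Etv1 in 590 (80.2%) and of Kit in 516 (70.1%). Ano1 and Kit occurred in the same cell in 425 members (57.7%), and Ano1, Etv1 and Kit in 340 (46.2%). At the other end, 119 members (16.2%) had neither Ano1 nor Kit, and 38 were admitted on Etv1 alone. Of the remaining rule genes, Gpc3, a glypican of the cell surface, had a UMI in 295 members, the C-type lectin gene Chodl in 346 and Rprm, a cell cycle arrest gene, in 198.

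Free RNA in the droplets sets a floor for such shares, so leukocytes (cells with a Ptprc UMI) were counted in the same way. An Ano1 UMI was found in 73.5% of DATK32, 69.9% of MECA367 and 70.0% of RatIgG members, against 1.67% of leukocytes in DATK32, 1.24% in MECA367 and 2.14% in RatIgG. For Kit, which some leukocytes such as mast cells express themselves, the share was 74.2% of DATK32, 57.8% of MECA367 and 73.1% of RatIgG members, against 15.4% of leukocytes in DATK32, 13.1% in MECA367 and 11.2% in RatIgG. The rule counted UMIs of Ano1 and Kit, so high shares of these genes in members follow in part from the choice of cells. Enpep, the aminopeptidase A gene and a marker of the label that the rule did not use, had a UMI in 50% of DATK32, 45.2% of MECA367 and 46.2% of RatIgG members. In leukocytes its share was 0.965% in DATK32, 0.664% in MECA367 and 1.34% in RatIgG, at a median leukocyte depth of 1499 UMIs in DATK32, 2122 in MECA367 and 1320 in RatIgG.

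The members were not uniform, and the number of rule-gene UMIs in a cell went with its other genes. The summed rule-gene UMIs had a median of 9 in DATK32, 7 in MECA367 and 7 in RatIgG, and the highest cell held 57 in DATK32, 53 in MECA367 and 33 in RatIgG. At least 5 rule-gene UMIs were present in 233 DATK32 members (75.2%, interval 70.0% to 79.9%), in 99 MECA367 members (59.6%, 51.8% to 67.2%) and in 174 RatIgG members (66.9%, 60.8% to 72.6%). Just 2 were present in 41 DATK32, 44 MECA367 and 45 RatIgG members, so MECA367 had the largest share of its members (26.5%) at the threshold. Of these 130 cells, 99 also met one of the rules used below to pick smooth muscle cells or fibroblasts, against 83 of the 506 cells with 5 or more.

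**Figure D1:**
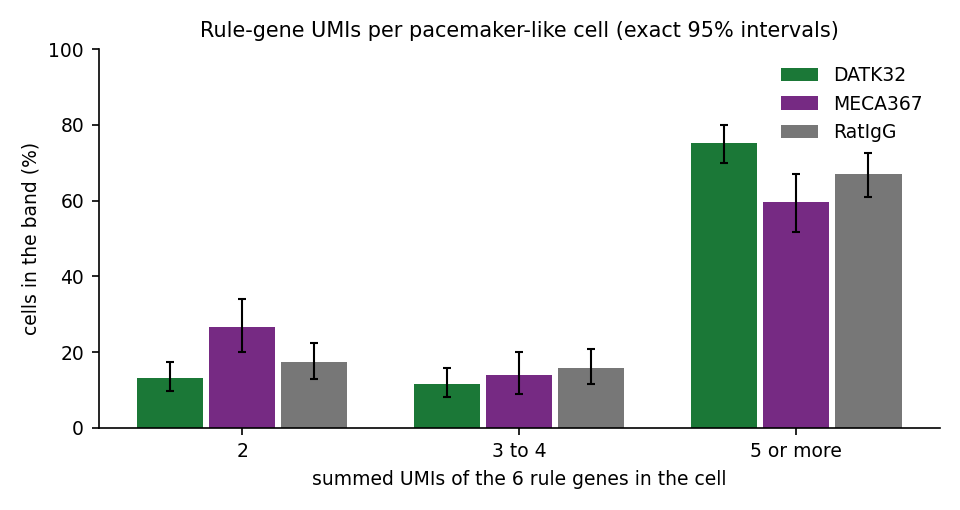
Pacemaker-like cells of each library split by the number of rule-gene UMIs they held (2, 3 to 4, or 5 or more), as a percentage of the library's members. Cells with 5 or more make up 75.2% in DATK32, 59.6% in MECA367 and 66.9% in RatIgG.

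Levels are given in CPM, a gene's UMIs summed over the members of a library and scaled to 1000000 UMIs in all. Among cells with 5 or more rule-gene UMIs, Enpep stood at 853 CPM in DATK32, 785 in MECA367 and 1088 in RatIgG, against 101 in DATK32, 9.90 in MECA367 and 205 in RatIgG among cells with 2. Gja1, which encodes the gap junction protein connexin 43, showed the same order, with 1176 CPM in DATK32, 1235 in MECA367 and 1644 in RatIgG at 5 or more and 304 in DATK32, 475 in MECA367 and 377 in RatIgG at 2. The WNT antagonist gene Dkk2 had 376 CPM in DATK32, 395 in MECA367 and 429.6 in RatIgG at 5 or more, against 11.3 in DATK32, 34.2 in RatIgG and no UMI in MECA367 at 2. Fibroblast genes ran the other way. Dcn, which encodes the matrix proteoglycan decorin, was at 698 CPM in DATK32, 801 in MECA367 and 349 in RatIgG at 5 or more, and at 6467 in DATK32, 5812 in MECA367 and 2550.4 in RatIgG at 2. Pdgfra, the receptor gene that marks fibroblasts and the fibroblast-like interstitial cells of the gut muscle, was at 152 CPM in DATK32, 285 in MECA367 and 97.4 in RatIgG at 5 or more, and at 890.0 in DATK32, 1019.9 in MECA367 and 1249.5 in RatIgG at 2.

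The genes named above thus went with the label in the cells with many rule-gene UMIs. At the threshold fibroblast genes were high, which went against the label. Enpep was there below its level at 5 or more in each library, on 9 UMIs in DATK32, 1 in MECA367 and 12 in RatIgG. The rule genes themselves make this split, so it describes the label and does not test it. Just outside the rule, cells with 1 rule-gene UMI (100 in DATK32, 147 in MECA367 and 155 in RatIgG) had Enpep at 48.2 CPM in DATK32, 16.1 in MECA367 and 72.6 in RatIgG. Cells with 2 or more rule-gene UMIs but none of Ano1 or Etv1 (79 in DATK32, 94 in MECA367 and 92 in RatIgG) had Enpep at 162 CPM in DATK32, 110 in MECA367 and 158 in RatIgG, above the members at 2 in DATK32 and MECA367. The main differences between libraries are for this reason given for all 736 members and again for the 506 with 5 or more rule-gene UMIs, a split chosen after seeing the data.

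**Figure D2:**
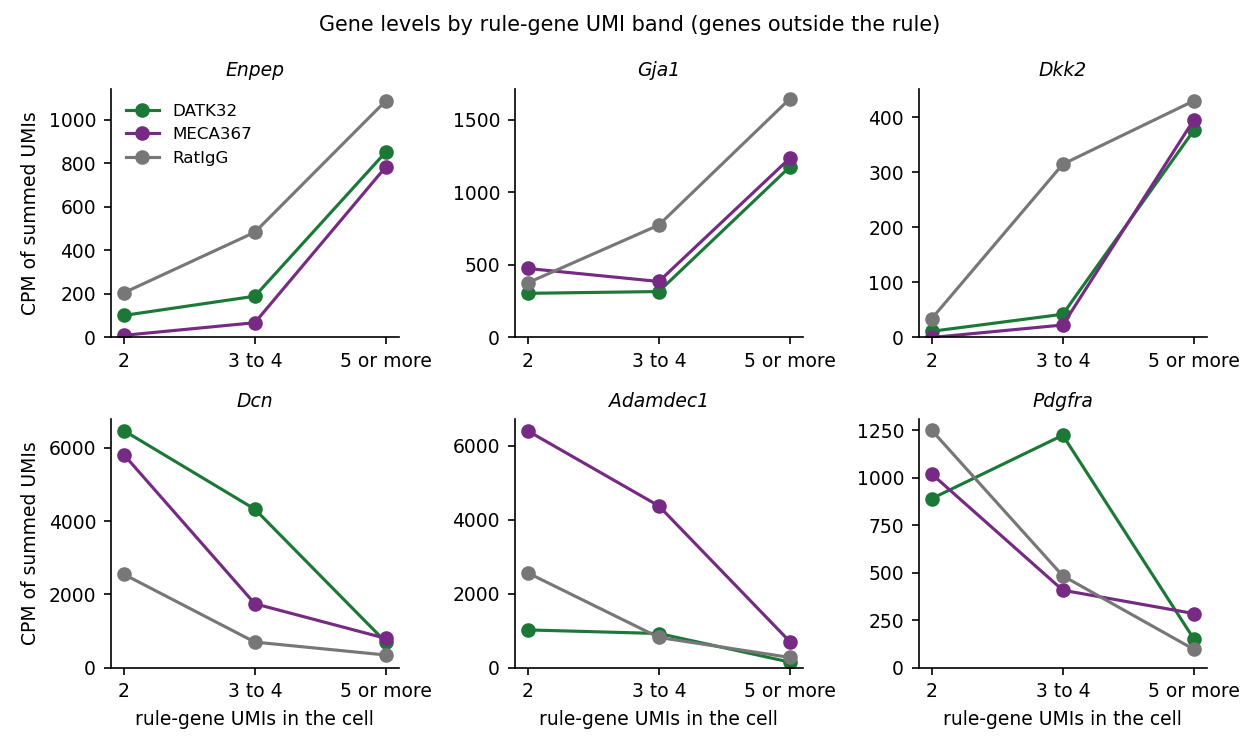
CPM (linear axis, summed over cells) of 6 genes that the rule did not use, by the number of rule-gene UMIs in the cell, with 1 line per library. Enpep, Gja1 and Dkk2 are highest at 5 or more rule-gene UMIs, and Dcn, Adamdec1 and Pdgfra are lowest there in each library.

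To place the members among other stromal cells of the same libraries, gated cells that were no members were picked by a few genes each: 148 smooth muscle cells (Myh11 with Actg2, Des and Cnn1), 804 mucosal fibroblasts (Adamdec1 and Ccl11) and 1093 deep fibroblasts (Lum and Dpt). The smooth muscle cells numbered 44 in DATK32, 35 in MECA367 and 69 in RatIgG. A gene is called higher or lower in members when its CPM differed at least 1.5-fold the same way in each of the 3 libraries. This rule uses no interval, so calls against smooth muscle cells can rest on few UMIs. By this rule 6.55% of 4440 measured genes were higher and 5.61% lower than in smooth muscle cells, 9.81% of 6067 higher and 6.87% lower than in mucosal fibroblasts, and 7.51% of 6644 higher and 4.89% lower than in deep fibroblasts. The comparison cells are themselves chosen by genes, so counts that include those genes describe the choice.

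Enpep was higher in members than in all 3 types. It had 636 CPM in DATK32, 449 in MECA367 and 809 in RatIgG members, against 109.7 to 134 CPM in the deep fibroblasts of the 3 libraries, 22.3 to 38.5 CPM in smooth muscle cells, and at most 6.33 CPM in mucosal fibroblasts. Of 9 measured transcripts from a list known for interstitial cells of Cajal, 5 were higher than in smooth muscle cells, 5 than in mucosal fibroblasts and 6 than in deep fibroblasts. The median log2 ratios were 2.52, 1.31 and 2.75. Prkcq, the gene of protein kinase C theta, which is a histological marker of these cells, had 225 CPM in DATK32, 149.7 in MECA367 and 244 in RatIgG members. It had no UMI in the smooth muscle cells or mucosal fibroblasts of any library, and 11.0 to 20.9 CPM in deep fibroblasts.

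Edn3, which encodes the peptide endothelin 3, had 146 CPM in DATK32, 85.6 in MECA367 and 200.5 in RatIgG members, and at most 6.97 CPM in any comparison type. The fatty acid elongase gene Elovl6 had 439.7 CPM in DATK32, 336 in MECA367 and 499 in RatIgG members and at most 64.2 CPM in the others. Thbs4, a thrombospondin gene, had 99.4 CPM in DATK32, 64.2 in MECA367 and 91.1 in RatIgG members and at most 24.4 CPM elsewhere. These 3 genes, with Prkcq and Gja1, were the members of the list that were higher than in all 3 types. Hcn4, a cation channel gene of the heart pacemaker, had no UMI in 736 members, which allows a share of up to 0.408% of members with a UMI, and the list's Rgs4 was lower than in smooth muscle cells.

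**Figure D3:**
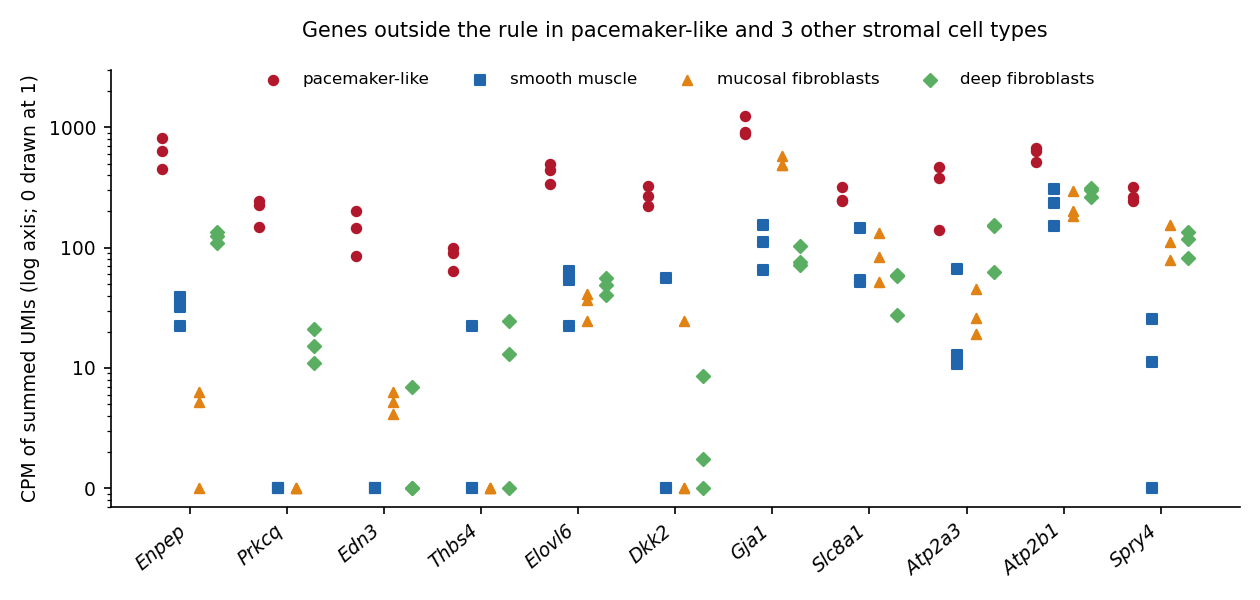
CPM on a log axis (0 drawn at 1) of 11 genes outside the rule in pacemaker-like cells, smooth muscle cells, mucosal fibroblasts and deep fibroblasts, with 1 point per library. The member points of Prkcq lie between 149.7 and 244 CPM, above the comparison points, of which the highest is 20.9 CPM.

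Slow waves need a chloride gradient, calcium entry and calcium stores that release and refill. Slc12a2, the NKCC1 cotransporter that loads chloride into the cell, had 652 CPM in DATK32, 507 in MECA367 and 802 in RatIgG members. Smooth muscle cells had 154 to 245 CPM and mucosal fibroblasts 45.2 to 88.7 CPM over the 3 libraries, both below members, while deep fibroblasts with 272 to 365 CPM did not meet the 1.5-fold rule in each library. Of the pacemaker channels, Cacna1d, an L-type calcium channel subunit, had 181 CPM in DATK32, 165 in MECA367 and 266 in RatIgG members and was higher than in smooth muscle cells and mucosal fibroblasts. The T-type channel gene Cacna1g was lower than in deep fibroblasts, with 30.9 CPM in DATK32, 9.17 in MECA367 and 47.4 in RatIgG members against 77.7 CPM in DATK32, 49.3 in MECA367 and 127 in RatIgG deep fibroblasts. In all, 4 of 10 measured channel genes were higher than in smooth muscle cells, 7 of 10 than in mucosal fibroblasts and 4 of 11 than in deep fibroblasts, Ano1 itself included, and 1, 0 and 1 were lower.

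Among calcium store genes, 6 of 13 were higher than in smooth muscle cells, 9 of 12 than in mucosal fibroblasts and 4 of 12 than in deep fibroblasts. Atp2a3, the SERCA3 calcium pump, had 380.0 CPM in DATK32, 141 in MECA367 and 467 in RatIgG members, against at most 66.8 CPM in smooth muscle cells, 45.2 in mucosal fibroblasts and 153 in deep fibroblasts. Atp2b1, the calcium pump of the plasma membrane, had 639 CPM in DATK32, 519 in MECA367 and 678 in RatIgG members and no more than 315 CPM in a comparison type. Slc8a1, the sodium-calcium exchanger, and Stim2, a sensor of store calcium, were the other genes higher than in all 3 types. In smooth muscle cells Stim2 had 1 UMI in DATK32, 0 in MECA367 and 3 in RatIgG. The phospholipase gene Plcb4, at 539 CPM in DATK32, 416 in MECA367 and 529 in RatIgG members, exceeded smooth muscle cells and mucosal fibroblasts by the rule. Pln, the SERCA inhibitor phospholamban of muscle, was lower than in smooth muscle cells, and Plcb1 was lower than in deep fibroblasts.

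Downstream of KIT the differences were few. Of 19 measured genes of the KIT pathway, 4 were higher than in mucosal fibroblasts and 3 than in deep fibroblasts, and 5 of 16 were higher than in smooth muscle cells; Kit and Etv1, which the rule used, are among them each time. Spry4, a feedback inhibitor of receptor tyrosine kinase signalling, was higher than in all 3 types, with 245 CPM in DATK32, 266 in MECA367 and 321 in RatIgG members. Smooth muscle cells had at most 25.7 CPM of it, mucosal fibroblasts 78.3 to 155 CPM, and deep fibroblasts 82.2 to 134 CPM. Kitl, the gene of the KIT ligand, stood lower in members than in deep fibroblasts and higher than in mucosal fibroblasts. It did not meet the rule against smooth muscle cells. It had 371 CPM in DATK32, 419 in MECA367 and 339 in RatIgG members, against 881 CPM in DATK32, 929 in MECA367 and 841 in RatIgG deep fibroblasts.

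Receptors for enteric transmitters were sparse. Htr2b, a serotonin receptor that in mice supports the proliferation of these cells, had 106 CPM in DATK32, 36.7 in MECA367 and 80.2 in RatIgG members, and at most 2.74 CPM in fibroblasts of either kind. Against smooth muscle cells its log2 ratios were 3.08 in DATK32, -0.12 in MECA367 and 2.91 in RatIgG, so the rule was not met. Prkg1, the cyclic GMP-dependent kinase through which nitric oxide acts, had 130.4 CPM in DATK32, 122 in MECA367 and 168 in RatIgG members and was higher than in both fibroblast types, of which the highest value was 28.5 CPM. It did not differ by the rule from smooth muscle cells, with log2 ratios of -0.63 in DATK32, -0.05 in MECA367 and 0.14 in RatIgG. Gucy1a1, a subunit of the nitric oxide receptor, had 517 CPM in DATK32, 309 in MECA367 and 474 in RatIgG members and was higher than in smooth muscle cells and mucosal fibroblasts. Vipr1, Htr4 and P2ry2 had no UMI in any member, with the same limit of 0.408%. The purine receptor P2ry1, which belongs to the PDGFRA-positive interstitial cells, was lower than in deep fibroblasts, with 50.8 CPM in DATK32, 55 in MECA367 and 76.6 in RatIgG members against 189 to 300.2 CPM there. It was higher than in smooth muscle cells, with log2 ratios of 2.05 in DATK32, 1.43 in MECA367 and 2.85 in RatIgG.

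For coupling and membrane domains, Gja1 was higher than in all 3 types, with 915 CPM in DATK32, 886 in MECA367 and 1243 in RatIgG members against at most 582 CPM in mucosal fibroblasts, 154 in smooth muscle cells and 103 in deep fibroblasts. Cav1, the caveolin gene of the flask-shaped caveolae that these cells share with smooth muscle, had 544 CPM in DATK32, 422 in MECA367 and 623 in RatIgG members. It was higher than in deep fibroblasts (19.2 to 23.8 CPM) and mucosal fibroblasts (63.3 to 144 CPM) and did not meet the rule against smooth muscle cells (335 to 445 CPM). Cav2 and Cavin2 followed the same pattern.

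Contractile genes lay between muscle and deep fibroblasts in the members. All 13 measured contractile genes were lower than in smooth muscle cells, the 4 that chose those cells included, while 11 of 12 were higher than in deep fibroblasts. Myl9, a myosin light chain gene, had 649.6 CPM in DATK32, 519 in MECA367 and 678 in RatIgG members, against 2314 to 3006 CPM in smooth muscle cells and 43.8 to 74.9 CPM in deep fibroblasts. Among matrix genes, 0 of 18 were higher and 2 lower (Col4a1 and Col4a2) than in smooth muscle cells, 15 of 18 were lower than in deep fibroblasts and 12 of 18 lower than in mucosal fibroblasts, with median log2 ratios of 0.11, -1.35 and -1.09 in the 3 comparisons. Col1a1, the main fibrillar collagen gene, had 418 CPM in DATK32, 507 in MECA367 and 368 in RatIgG members, against 1186 to 1580 CPM in deep fibroblasts. Inflamed-stroma genes (chemokines, cytokines, adhesion and injury genes) were lower for 13 of 26 against deep fibroblasts and 14 of 26 against mucosal fibroblasts, and immediate-early genes for 19 of 22 against mucosal fibroblasts.

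Of 3692 genes measured in members (at least 50 UMIs over the 3 libraries), 93 (2.52%) were higher than in all 3 types. Besides the 6 rule genes, 12 of them belong to a list named here and 75 to none. Among those 75, and so chosen after their values were seen, Fst, which encodes the activin-binding protein follistatin, had 258 CPM in DATK32, 342 in MECA367 and 222 in RatIgG members and at most 42.7 CPM in a comparison type. Kcnk3, the background potassium channel TASK-1, had 179 CPM in DATK32, 168 in MECA367 and 237 in RatIgG members and at most 66.8 CPM elsewhere. The natriuretic peptide receptor gene Npr3 and the cyclic nucleotide phosphodiesterase gene Pde2a were among them as well. Npy2r, a receptor for neuropeptide Y and peptide YY, had 75.1 CPM in DATK32, 64.2 in MECA367 and 54.7 in RatIgG members and no UMI in any of the 3 types. Lower than in all 3 types were 7 genes, the metallothioneins Mt1 and Mt2, Eln, Col4a1, Abi3bp, Adamts1 and Fosl2.

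The other gated cells were not all stromal. In them the 10 genes of the leukocyte list had 115860 CPM in DATK32, 106361 in MECA367 and 145749 in RatIgG. Against all other gated cells together, the 15 genes with the highest ratios (the lowest of the 3 libraries deciding the rank) held 4 rule genes, Ano1, Rprm, Kit and Etv1. First came Galnt13, an enzyme of O-linked glycosylation, with 95 CPM in DATK32, 125 in MECA367 and 146 in RatIgG members against 0.371 CPM in DATK32, no UMI in MECA367 and 1.15 CPM in RatIgG other gated cells. Dkk2 had 270 CPM in DATK32, 223 in MECA367 and 328 in RatIgG members against 3.71 CPM in DATK32, 3.09 in MECA367 and 5.76 in RatIgG other gated cells. Hand1, a transcription factor gene of mesoderm, had 130.4 CPM in DATK32, 205 in MECA367 and 139 in RatIgG members. Adgrd1, an adhesion G protein-coupled receptor gene, had 331 CPM in DATK32, 199 in MECA367 and 328 in RatIgG members. Cck, the cholecystokinin gene better known from endocrine cells and neurons, had 126 CPM in DATK32, 101 in MECA367 and 117 in RatIgG members. Npy2r, Pcdh20, Ctxn3, H19, Prkcq and Edn3 complete the 15.

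Markers of other cell types were counted in the members. All 7 genes of the mast cell list, the other Kit-expressing lineage of the gut wall, had no UMI; Cpa3 had none by the rule. Of the enteric glia genes, Sox10, Gfap, Foxd3 and Cdh19 were at 0, and the list held 3 UMIs in DATK32, 5 in MECA367 and 3 in RatIgG. Neuron genes summed to 34 UMIs in DATK32, 2 in MECA367 and 94 in RatIgG, and 1 DATK32 and 2 RatIgG members held at least 3 of them. Melanocyte genes, tested because melanocytes depend on KIT, summed to 10 UMIs in DATK32, 5 in MECA367 and 8 in RatIgG, with Mlana, Dct and Tyr at 0. The list of PDGFRA-positive interstitial cells had 1178 CPM in DATK32, 1268 in MECA367 and 1207 in RatIgG members. Other gated cells had 1130, 970 and 1027 CPM of it. Of its 5 measured genes, 3 were higher than in smooth muscle cells, 2 than in mucosal fibroblasts and 0 than in deep fibroblasts, and 1, 1 and 3 were lower. Whether such cells are among the members was not tested. The pericyte list was present at 1960 CPM in DATK32, 1965 in MECA367 and 2063 in RatIgG members, against 439 to 593 CPM in other gated cells. Most of it was Rgs5. Among members with 5 or more rule-gene UMIs Rgs5 had 1659 CPM in DATK32, 1740 in MECA367 and 2171 in RatIgG. Among members with 2 it had 969 CPM in DATK32, 1089 in MECA367 and 650 in RatIgG. These Rgs5 levels are scaled to the subset, so they are not parts of the list's totals. Rgs5, Cspg4 and Cox4i2 were higher than in mucosal fibroblasts, and Cspg4 and Cox4i2 higher than in deep fibroblasts. Pdgfrb was lower than in smooth muscle cells and mucosal fibroblasts, and Higd1b was at 0. Whether pericytes are among the members was not tested.

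Leukocyte RNA differed between the libraries. Immunoglobulin RNA amounted to 11303 CPM in DATK32, 504 in MECA367 and 18577 in RatIgG members, and 1 DATK32 and 2 RatIgG members held 50% of it in their library. Among the 506 members with 5 or more rule-gene UMIs the order of DATK32 and RatIgG turned for the light chain gene Igkc, which had 9970 CPM in DATK32 and 203 in MECA367 against 533 in RatIgG, and 7050 CPM in DATK32 and 220.0 in MECA367 against 9015 in RatIgG over all members. More than 5% of the UMIs were immunoglobulin in 3 DATK32 members, no MECA367 member and 3 RatIgG members. S100a8 and S100a9, neutrophil genes, together had 444 UMIs in DATK32, 49 in MECA367 and 610 in RatIgG. No doublet caller was run. Without the members over 5% immunoglobulin, the share of pacemaker-like cells was 5.25% in DATK32, 2.82% in MECA367 and 3.49% in RatIgG.

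Pacemaker-like cells took the largest share in DATK32. They made up 5.30% of kept barcodes in DATK32 (interval 4.74% to 5.90%), 2.82% in MECA367 (2.41% to 3.27%) and 3.53% in RatIgG (3.12% to 3.98%). Shares are called different where the ratio reaches 1.5 and the intervals do not touch. DATK32 was higher than RatIgG by a ratio of 1.50, at the edge of the rule, and higher than MECA367 by 1.88; MECA367 over RatIgG was 0.799 and not called. Taken over the gated cells, which leaves out leukocytes with Ptprc, the shares were 15.1% in DATK32 (13.6% to 16.8%), 7.65% in MECA367 (6.56% to 8.85%) and 9.34% in RatIgG (8.28% to 10.5%), with DATK32 over RatIgG at 1.62 and DATK32 over MECA367 at 1.98. The gated cells other than members still held much leukocyte RNA, as given above, so they are not a purely stromal denominator. Both antibody libraries are set against the same RatIgG library. With 5 or more rule-gene UMIs, members made up 3.98% of kept barcodes in DATK32, 1.68% in MECA367 and 2.36% in RatIgG, and the calls were the same. The libraries were sorted for CD45 and the rule admits no Ptprc UMI; the part of the sort in these shares was not tested.

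**Figure D4:**
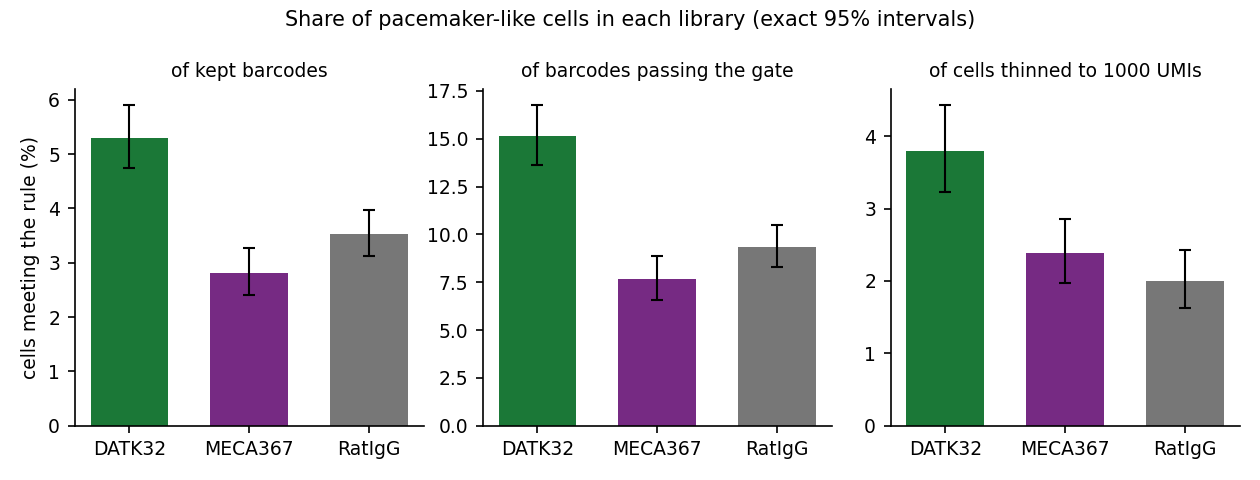
Share of pacemaker-like cells in each library as a percentage of kept barcodes, of barcodes that pass the exclusions of the rule, and of cells thinned to 1000 UMIs, with exact 95% binomial intervals (counting error only). DATK32 is highest in all 3 panels, and MECA367 and RatIgG change places in the thinned panel, at 2.38% and 1.99%.

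Depth sets whether a cell reaches 2 rule-gene UMIs, and the libraries differ in it. With every cell thinned to 1000 UMIs, which leaves out 1771 shallower cells in DATK32, 1193 in MECA367 and 2453 in RatIgG, members made up 3.80% of cells in DATK32 (3.23% to 4.43%), 2.38% in MECA367 (1.97% to 2.86%) and 1.99% in RatIgG (1.62% to 2.43%). Unthinned, the same cells gave 4.56% in DATK32, 3.28% in MECA367 and 2.16% in RatIgG. DATK32 thus remained above both, whereas the order of MECA367 and RatIgG turned round. Over the gated cells the thinned shares were 9.44% in DATK32, 4.76% in MECA367 and 5.11% in RatIgG, with no such turn, and no direction is given for that pair. A mitochondrial limit of 5% left DATK32 over RatIgG under the rule, at a log2 ratio of 0.42 with shares of 3.00% and 2.23%. Limits of 20% (log2 ratio 0.55) and leaving out the 1 DATK32 member above the 95th percentile of UMIs (0.58) did so too, by small margins. Without members that meet a comparison rule, MECA367 over RatIgG was called lower, at -0.79.

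Gene levels in members were compared between libraries on their summed UMIs, with log2 ratios that add 1 count to each count; a gene is called when the fold is at least 1.5 and the Poisson intervals are apart. Of 3692 measured genes, 1.79% were higher and 1.6% lower in DATK32 than in RatIgG, 5.09% were higher and 2.93% lower in MECA367 than in RatIgG, and 2.74% were higher and 4.6% lower in DATK32 than in MECA367. Scaling by the median of ratios in place of the total changed the DATK32 over RatIgG split from 66 higher and 59 lower genes to 101 higher and 40 lower. Among the 506 members with 5 or more rule-gene UMIs, 2431 genes were measured; 1.56% were higher and 1.15% lower in DATK32 than in RatIgG, 4.15% and 2.55% in MECA367 than in RatIgG, and 2.63% and 3.25% in DATK32 than in MECA367. The first and second comparison share the RatIgG library.

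None of the 6 rule genes was called between DATK32 and RatIgG. In MECA367, Kit, Gpc3 and Etv1 were lower than in RatIgG. Kit stood at 2486 CPM in DATK32 (2342 to 2635) and 1296 in MECA367 (1175 to 1425) against 2555 in RatIgG (2370 to 2752), a MECA367 over RatIgG log2 ratio of -0.98. Gpc3 stood at 771 CPM in DATK32 and 345 in MECA367 against 922 in RatIgG (MECA367 over RatIgG log2 ratio -1.41). Etv1 stood at 1584 CPM in DATK32 and 1146 in MECA367 against 1979 in RatIgG (MECA367 over RatIgG -0.79), and Ano1 at 1171 CPM in DATK32 and 1057 in MECA367 against 1374 in RatIgG (-0.38, not called). The rule used these genes, and MECA367 had the largest share of members at the threshold. Among cells with 5 or more rule-gene UMIs, which the same genes select, the log2 ratios of MECA367 over RatIgG were -0.76 for Kit, -1.32 for Gpc3 and -0.60 for Etv1, and these values are a description that supports nothing further. Without the 234 members that also met a comparison rule, Kit was at -0.37 and Etv1 at -0.35, neither called. DATK32 over MECA367 was 0.94 for Kit and 1.15 for Gpc3, both called, and 0.34 and 0.46 without those members, neither called.

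Enpep, outside the rule, was lower in MECA367 than in RatIgG at 449 CPM (379.5 to 528) against 809 (706 to 923), a log2 ratio of -0.85. With 5 or more rule-gene UMIs the ratio was -0.47 and no longer called, and without members meeting a comparison rule it was -0.13. Atp2a3, the SERCA3 pump gene, had 141 CPM in MECA367 (103 to 188) against 467 in RatIgG (389 to 555), a log2 ratio of -1.71, and the call held with 5 or more rule-gene UMIs (-1.43). DATK32, at 380.0 CPM (325 to 441), was higher than MECA367 by 1.41. Gdf10, a gene of the BMP family and among the 5 lowest of MECA367 over RatIgG, had 360.1 CPM in DATK32 and 138 in MECA367 against 518 in RatIgG (MECA367 over RatIgG -1.89), and the ratio was -1.54 with 5 or more rule-gene UMIs. Deep fibroblasts were also lower in MECA367, with Atp2a3 at 63.0 CPM against 153 in RatIgG and Gdf10 at 79.4 against 152. In smooth muscle cells and mucosal fibroblasts Gdf10 had at most 2 UMIs in a library. Whether these 2 genes differ more in members than in other cells was not tested. The chloride loader Slc12a2 (-0.66), Edn3 (-1.20), the nitric oxide receptor gene Gucy1a1 (-0.62) and the caveola gene Cavin1 (-0.72) were also called lower in MECA367 than in RatIgG. Of these, Slc12a2, Gucy1a1 and Cavin1 were still called with 5 or more rule-gene UMIs (-0.59, -0.68 and -1.04), and Edn3 (-0.83) and Chrm3 (-1.59) were not. Without members that meet a comparison rule the ratios of Slc12a2 and Gucy1a1 were -0.17 and -0.52, and in cells with at least 1000 UMIs and 500 genes -0.15 and -0.24, no longer called. The Cavin1 call was lost without members that meet a comparison rule (-0.91).

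In each of the next lists, at most 1 gene was called in either antibody library over RatIgG. Of all measured genes, 1.79% were higher and 1.6% lower in DATK32, and 5.09% higher and 2.93% lower in MECA367. Whether these short lists differ from all genes was not tested. Of 8 measured transcripts of interstitial cells of Cajal, 0 were called in DATK32 over RatIgG and 1 (Edn3) was lower in MECA367 than in RatIgG. Of 6 pacemaker channel genes, 0 and 1 were called in the same comparisons, and of 12 calcium store genes 1 higher in DATK32 and 1 lower in MECA367. With 5 or more rule-gene UMIs these lists held 8, 5 and 9 measured genes. Of all genes measured in those cells, 1.15% were lower in DATK32 and 2.55% lower in MECA367 than in RatIgG. None of the 8 transcripts was then called against RatIgG, while the channel subunit gene Cacna2d1 was lower in DATK32 than in RatIgG, at 91.6 CPM against 206 (-1.16), and Slc12a2 and Atp2a3 were lower in MECA367. Chrm3, with 47.4 CPM in DATK32 against 126 in RatIgG, was lower in DATK32 in those cells (-1.38) and not called over all members. The 1 calcium store gene higher in DATK32 over all members was the phospholipase gene Plcb1, at 68.5 CPM against 14.6 in RatIgG. Outside these 3 lists, Dkk3, a DKK family gene, was lower than in RatIgG in both antibody libraries, with 243 CPM in DATK32 and 241 in MECA367 against 372 in RatIgG (log2 ratios -0.61 and -0.62). It is 1 of 10 measured WNT and BMP pathway genes, of which Rspo3, Bmp5 and Sfrp1 were higher in MECA367 than in RatIgG and Sfrp1 in DATK32. With 5 or more rule-gene UMIs, 0 of 6 were higher in either. Both Dkk3 calls were lost when counts were scaled by the median of ratios (-0.52 and -0.56) and held with 5 or more rule-gene UMIs (-0.68 and -0.74).

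Interferon-stimulated genes were higher in MECA367 members. Of 18 measured, 10 were higher than in RatIgG and 18 had a log2 ratio above 0, with a median of 0.96 against 0.00 over all measured genes. Of all measured genes 5.09% were higher. Bst2, which encodes the antiviral protein tetherin, had 172 CPM in DATK32 (136 to 215) and 468 in MECA367 (396 to 548) against 131 in RatIgG (91.9 to 182). Ifitm3, an antiviral membrane protein gene, had 3369 CPM in DATK32 (3202 to 3543) and 5259 in MECA367 (5013 to 5513) against 2698 in RatIgG (2507 to 2899). The MHC class I heavy chain gene H2-D1 had 585 CPM in DATK32 and 1201 in MECA367 against 510 in RatIgG, and its partner B2m had 1142 CPM in DATK32 and 2017 in MECA367 against 1097 in RatIgG. H2-D1 and the related H2-K1, which was also higher, are similar in sequence, and reads may be split between them. The other called genes were Irf1, Gbp2, Irgm1, Iigp1 and Psmb8.

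The interferon difference was also present among the cells with most rule-gene UMIs, where fewer genes of the list were measured. With 5 or more, 7 of 14 measured genes were higher in MECA367 than in RatIgG (4.15% of all genes) and the median was 1.20. Bst2 then had 180 CPM in DATK32 and 510.5 in MECA367 against 109 in RatIgG. Irf1 fell below 0, at -0.11 with 5 or more, and Irgm1 and Psmb8 were no longer called. In DATK32 members, 1 of 18 genes was higher than in RatIgG (median 0.24, 1.79% of all genes higher). It was Iigp1, an interferon-induced GTPase, which had 298 CPM in DATK32 and 559 in MECA367 against 87.5 in RatIgG. Without members meeting a comparison rule the Iigp1 ratio of DATK32 over RatIgG was 0.28 and not called. Set directly against each other, 11 of the 18 genes were lower in DATK32 than in MECA367 (4.6% of all genes), with a median of -0.83.

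Genes of the same list were also higher in other stromal cells of the MECA367 library. The list was higher than in RatIgG for 6 of 8 genes in smooth muscle cells (median 0.85, 6.79% of all genes higher), for 6 of 17 in mucosal fibroblasts (0.67, 4.16%) and for 10 of 18 in deep fibroblasts (0.94, 3.2%). DATK32 over RatIgG gave 0 of 8 genes in smooth muscle cells (0.14, 4.18% of all genes higher), 1 of 17 in mucosal fibroblasts (0.70, 2.57%) and 1 of 18 in deep fibroblasts (0.19, 0.925%). No difference between the cell types in this response was tested.

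**Figure D5:**
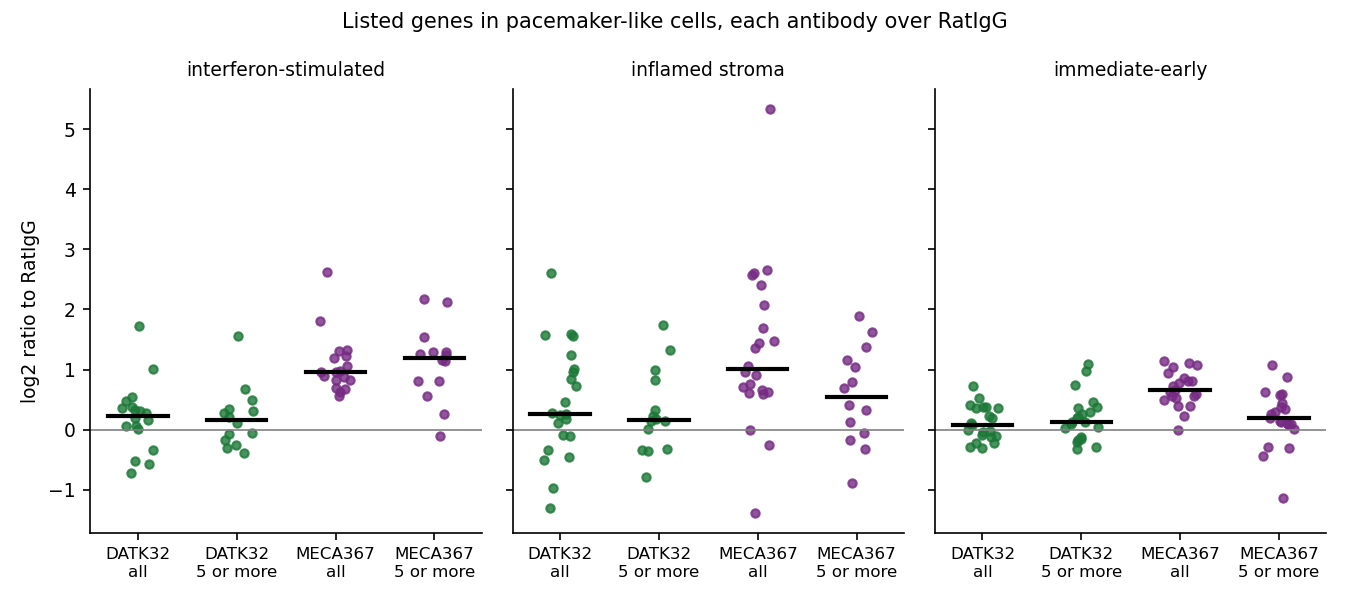
Log2 ratio to RatIgG of each measured gene of 3 lists in pacemaker-like cells of DATK32 and of MECA367, for all members and for those with 5 or more rule-gene UMIs; black bars are medians. The interferon median of MECA367 is 0.96 in all members and 1.20 in those with 5 or more, while the immediate-early median of MECA367 is 0.66 and 0.19.

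Inflamed-stroma genes were higher in MECA367 than in RatIgG for 13 of 22 measured genes and lower for 1, Cxcl2, with a median of 1.02. Of all measured genes, 5.09% were higher in MECA367 over all members and 4.15% with 5 or more rule-gene UMIs. For DATK32 these shares were 1.79% and 1.56%. Without members meeting a comparison rule, 81 of 2222 measured genes were higher in MECA367 and 51 in DATK32. Saa3, an acute-phase gene, had 197 CPM in DATK32 and 620 in MECA367 against 94.8 in RatIgG, and Lcn2, the siderophore-binding lipocalin gene, had 214 CPM in DATK32 and 504 in MECA367 against 117 in RatIgG. These UMIs came from few cells, since Saa3 was found in 2.58% of DATK32, 6.63% of MECA367 and 2.31% of RatIgG members. With 5 or more rule-gene UMIs, 3 of 14 genes were higher (Cxcl10, Saa3 and Lcn2, median 0.55), and without members meeting a comparison rule 1 of 12 was higher and 1 lower (median 0.16); the Saa3 ratio was then 0.99 and not called. In DATK32 over RatIgG, 6 of 22 were higher and 1 lower (median 0.27), 3 of 14 were higher with 5 or more rule-gene UMIs (Cxcl1, Cxcl10 and C3, median 0.16), and without members meeting a comparison rule 1 of 12 was higher and 1 lower (median -0.11). The complement gene C3, at 462 CPM in DATK32 against 153 in RatIgG, and the neutrophil chemokine gene Cxcl1, at 170.1 against 69.3, held their calls with 5 or more (1.75 and 1.32), and Cxcl1 lost its call as a mean over cells (0.42). Lcn2 was higher in DATK32 than in RatIgG by 0.85 over all members and stood at -0.78 with 5 or more. Madcam1, which encodes the mucosal vessel addressin, had no UMI in 736 members (limit 0.408%).

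Immediate-early genes, which also respond to tissue handling, were higher in MECA367 than in RatIgG for 12 of 21 measured genes (median 0.66), Fos, Jun and Ier3 among them. Of all measured genes 5.09% were higher. With 5 or more rule-gene UMIs, 2 were higher (Ier3 and the heat shock gene Hspa1a) and 1 lower (Klf4), with a median of 0.19. Of all genes in those cells, 4.15% were higher and 2.55% lower. Hspa1a shares nearly all its sequence with Hspa1b, so its count is uncertain. In DATK32 over RatIgG, 0 of 21 were called (median 0.08), and 2 of 21 were higher with 5 or more (0.13). The shares of all genes higher were 1.79% and 1.56%. Fibroblast genes moved with these lists in MECA367: 6 of 10 were higher than in RatIgG over all members (5.09% of all genes) and 3 of 8 with 5 or more (4.15%). Adamdec1, a metalloprotease gene of mucosal fibroblasts, had 407 CPM in DATK32 and 2961 in MECA367 against 849 in RatIgG. In cells with 5 or more it had 155 CPM in DATK32 and 708 in MECA367 against 281 in RatIgG. The part of such fibroblast-gene cells in the inflamed-stroma and immediate-early values was not tested beyond these splits.

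Genes at the ends of each comparison were named by rank among called genes found in at least 10% of the members of the higher library. For MECA367 over RatIgG the highest were Ereg, Iigp1, C4b, Ccl2 and Efemp1. Ereg, which encodes the EGF receptor ligand epiregulin, had 532 CPM in MECA367 (456 to 617) against 14.6 in RatIgG (3.97 to 37.3), a log2 ratio of 4.87. It had a UMI in 17.5% of MECA367 and 1.54% of RatIgG members, and 181 CPM in MECA367 against no UMI in RatIgG among cells with 5 or more rule-gene UMIs. In mucosal fibroblasts it had 1603 CPM in MECA367 and 846 in RatIgG. The complement gene C4b had 153 CPM in MECA367 against 21.9 in RatIgG, and 71.4 CPM against 1 UMI with 5 or more. The chemokine gene Ccl2 (2.57 over all members, 0.70 with 5 or more) and the matrix gene Efemp1 (2.55 and 0.94) were not called with 5 or more.

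The lowest of MECA367 over RatIgG, besides Gdf10 and Atp2a3, were Rflnb (-1.84), Tsix (-1.67) and Plagl1 (-1.44). The Rflnb call was lost without members that meet a comparison rule (-1.24) and the Plagl1 call in cells with at least 1000 UMIs and 500 genes (-0.98). Tsix is antisense to Xist, and since the strand used in counting is not given in the sources used here, reads of the pair cannot be told apart. For DATK32 over RatIgG the highest were Iigp1, Pcp4, Mgst1, Dcn and Ufc1. Pcp4, a calmodulin-binding peptide gene, had 544 CPM in DATK32 against 189.6 in RatIgG (1.50), and Mgst1, a microsomal glutathione transferase gene, 181 against 62.0 (1.48); both were still called with 5 or more rule-gene UMIs (1.50 and 1.53). A UMI was found in 11.0% of DATK32 and 7.31% of RatIgG members for Pcp4, and in 17.7% and 6.15% for Mgst1. Dcn had 2209 CPM in DATK32 (2075 to 2351) and 2475 in MECA367 against 871 in RatIgG (764 to 989). It had a UMI in 21.3% of DATK32 and 18.5% of RatIgG members, so its UMIs came from a minority of cells in both. The lowest were Srgn, Igf2, Pmepa1, Adamdec1 and Tubb5. Igf2, an imprinted growth factor gene, had 81.7 CPM in DATK32 against 208 in RatIgG (-1.33), and -1.40 with 5 or more, while Srgn, a proteoglycan gene of leukocyte granules, had 81.7 against 244 (-1.56) and lost its call with 5 or more (-0.94). Tubb5 lost its call without the members that held 3 or more neuron UMIs (-0.63), and Adamdec1 with a mitochondrial limit of 5% (-0.49).

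For DATK32 over MECA367 the highest were Tle4, Rflnb, Prpf19, Wdr45b and Pet100. Tle4, a transcriptional corepressor gene, had 148 CPM in DATK32 (115 to 188) against 33.6 in MECA367 (16.8 to 60.1), a log2 ratio of 2.03, and 1.66 with 5 or more. Rflnb had 141 CPM in DATK32 against 39.7 in MECA367 (1.75), and 1.57 with 5 or more, though without members that meet a comparison rule it was 0.98 and not called. The lowest were Pcsk6 (-2.93), Ereg (-2.92), AW112010 (-2.90), Adamdec1 (-2.86) and Pappa (-2.59). Pcsk6, a proprotein convertase gene, had 15.5 CPM in DATK32 against 131 in MECA367, and 2 UMIs against 126 CPM with 5 or more rule-gene UMIs. Pappa, a protease gene that releases insulin-like growth factors, was not called with 5 or more (-1.69).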

How the data were processed

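The authors deposited, per sample, a matrix of counts: raw UMI counts for 32285 genes and each barcode, not normalised. Per the submitters' processing notes these came from Cell Ranger 6.0.2 with build mm10; the annotation, the strand setting and the cell filter are not given in the sources used here. No column of another sample was present.

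From the counts, members and comparison cells were picked by the stated rules, UMIs were summed per library and cell type, and CPM, log2 ratios (1 count added to each count), Poisson and Clopper-Pearson 95% intervals were computed with Python 3.11.15, numpy 2.4.6, scipy 1.17.1 and pandas 2.3.3; figures were drawn with matplotlib 3.10.9. The code was tested on simulated data. A library counts as 1 sample per group, so there was no test. Genes entered a comparison with at least 50 UMIs summed over the libraries and cells compared.

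The members, the 28 gene lists and the rules were chosen with earlier results of these data known, so no list is independent support. Named genes are the rule genes and label markers, list members (examples picked after their values were seen), the 15 highest over other gated cells, and the 5 highest and 5 lowest called genes of each pair of libraries with a UMI in at least 10% of members of the higher library. Mitochondrial, ribosomal, haemoglobin, immunoglobulin, Gm and Rik genes were left out of these ranks. Alternatives were other limits on mitochondrial share, UMIs, rule-gene UMIs and gene counts, another scaling, per-cell means, thinning to 1000 UMIs, a fold of 2, and leaving out members by UMIs, comparison rules, immunoglobulin or neuron UMIs. A rule threshold of 5 and the immunoglobulin and neuron alternatives were added after seeing the data.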

Additional observations from a re-analysis of the deposited data

How the results depend on the processing

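No paired analysis was possible because each group is 1 library. Depth limits these results: members held 452613 UMIs in DATK32, 327250 in MECA367 and 274322 in RatIgG, so genes of few UMIs, most receptors among them, could not be compared. The log2 ratios of shares that changed their call were, for DATK32 over RatIgG (0.59), 0.42 with a mitochondrial limit of 5%, 0.55 with 20% and 0.58 without members above the 95th percentile of UMIs. For MECA367 over RatIgG (-0.32) they were 0.59 with at least 1000 UMIs and 500 genes, which turns the direction, and -0.79 without members that meet a comparison rule. For DATK32 over MECA367 (0.91) the value was 0.48 with at least 1000 UMIs and 500 genes. Genes higher in DATK32 than in RatIgG numbered 66, 101 under the median of ratios and 38 with 5 or more rule-gene UMIs. Genes lower numbered 59, 107 with a minimum of 10 UMIs, 115 with none, 26 with a mitochondrial limit of 5% and 28 with 5 or more rule-gene UMIs. For MECA367 over RatIgG, 188 were higher, 118 with a rule threshold of 3, 81 without members that meet a comparison rule and 101 with 5 or more, and 108 were lower, 164 with a minimum of 10 UMIs, 165 with none, 63 with a mitochondrial limit of 5%, 49 without members that meet a comparison rule and 62 with 5 or more. For DATK32 over MECA367, 101 were higher, 156 with a minimum of 10 UMIs or none and 64 with 5 or more, and 170 were lower, 93 with a threshold of 3, 83 without members that meet a comparison rule and 79 with 5 or more. With fewer members or fewer genes tested, fewer genes can pass; the cause of the other changes was not tested. A fold of 2 in place of 1.5 left 151 higher and 114 lower against smooth muscle cells, 287 and 227 against mucosal fibroblasts, and 250 and 173 against deep fibroblasts. Single genes that turned were Chodl in DATK32 over RatIgG (0.69 with a mitochondrial limit of 5%), Lcn2 (-0.12, -0.78 and -1.18 with thresholds of 3 and 5 and without members that meet a comparison rule) and Saa3 (-0.30 without those members). In MECA367 over RatIgG it was Irf1 (-0.11 with 5 or more). In DATK32 over MECA367 they were Cacna2d1 (0.32) and Saa3 (2.44) with a mitochondrial limit of 5%, and Chodl (-0.64) and Rprm (-0.61) without members that meet a comparison rule.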

Other observations

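Signals of the epithelial niche were spread over the stromal types. Of 13 measured WNT and BMP pathway genes, 8 were lower in pacemaker-like cells than in mucosal fibroblasts, Bmp5 among them, and Rspo3, Dkk2 and Dkk3 were higher than in deep fibroblasts. Rspo3, a WNT amplifier gene, had 57.4 CPM in DATK32, 131 in MECA367 and 58.3 in RatIgG members, against 300.4 to 398 CPM in smooth muscle cells. Bmp5 had 24.3 CPM in DATK32, 141 in MECA367 and 29.2 in RatIgG members, against 339 to 583 CPM in mucosal fibroblasts.

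Some further genes were higher in members than in all 3 comparison types and were chosen after their values were seen. The forkhead gene Foxp2 had 389 CPM in DATK32, 416 in MECA367 and 554 in RatIgG members, against at most 178 CPM in a comparison type. Piezo2, a mechanically gated channel gene, had 139 CPM in DATK32, 73.3 in MECA367 and 168 in RatIgG members, against at most 75.6 CPM. Neighbouring homeobox genes Hoxd8, Hoxd9 and Hoxd10 were all in this set. Proliferation genes were rare: the 9 genes of the cycling list summed to 113 CPM in DATK32, 94.7 in MECA367 and 208 in RatIgG members, against 202 to 347 CPM in other gated cells, which also held leukocyte RNA. Of barcodes left out for more than 10% mitochondrial UMIs, 23 of 2578 in DATK32, 21 of 2428 in MECA367 and 39 of 3442 in RatIgG met the rule otherwise.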
